A study of Mus musculus with 15 samples.

Results

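CEACAM1, CEACAM5, CEACAM6, CEACAM19, MUC1, MUC4, MUC16 and MUC20 encode surface glycoproteins of the CEACAM family and of the transmembrane mucins. These 8 genes were chosen by name among the 25382 genes of the count table, with earlier results known in which the 3 libraries whose titles carry the number 6 stood apart from the other 12. Differences between those 3 libraries and the other 12 are therefore given as description, with no test. All 8 genes were in the table, 7 of them passed the filter on low counts, and CEACAM5 did not.

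All samples came from primary tumours, and the mice that bore them are labelled Nod/Skid. The labels give the tumour cells of every group as MDA-MB-231, an established line from a human breast carcinoma that lacks hormone receptors, carrying GFP and luciferase. Cultured cells had been separated by fluid shear. The groups were 6 libraries of weakly adherent origin (10 dyn per square centimetre), 4 of strongly adherent origin (50 dyn per square centimetre) and 5 of unsorted cells without shear. Each title also carries a number (4, 5, 6, 7-8, 9 or 10) whose meaning the labels do not give, and libraries are named here by adhesion class and that number. The tumours were dissociated and sequenced in bulk, so cells of the mouse host may be in the sample although reads were counted on human genes. Nothing in the labels says that libraries of a class came from separate animals, so each p-value reflects just the spread among these libraries, and that spread may be technical.

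CEACAM proteins are members of the immunoglobulin superfamily that bind each other between neighbouring cells. CEACAM1 spans the membrane and carries inhibitory signalling motifs, whereas CEACAM5 (the carcinoembryonic antigen) and CEACAM6 are held by a lipid anchor. Transmembrane mucins are long, heavily O-glycosylated proteins that line the apical face of epithelia and, on carcinoma cells, can mask other adhesion receptors. MUC1 and MUC4 are known to signal with receptors of the ERBB family, and MUC16 is the CA125 antigen and binds mesothelin.

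Libraries held between 30372619 and 45434799 counts, and levels are given as CPM, the count scaled to a common library size with TMM factors. Because transcripts differ in length, CPM values are compared between libraries and not between genes. The libraries titled number 6 stood apart in epithelial genes. CDH1, which encodes E-cadherin, lay between 0.267 and 5.56 CPM in them, against 53.1 to 549 CPM in the other 12. MDA-MB-231 is known as a line with little or no E-cadherin, so on this gene the 12 other libraries went against the label. CDKN2A, which that line is known to lack, had no count in any of the 15 libraries. The lung epithelium markers NKX2-1, a transcription factor, and SFTPB, a surfactant protein, were also higher in the 12. NKX2-1 lay at 0 to 0.399 CPM in number 6 against 6.18 to 58.1 CPM, and SFTPB at 0.229 to 0.430 CPM against 8.35 to 211 CPM. VIM, which encodes vimentin, lay the other way, at 6489 to 7399 CPM in number 6 against 1143 to 4478 CPM in the other 12. Strongly adherent library 5 stood apart in striated muscle markers, with 1941 CPM summed over 8 genes, against 113 to 693 CPM in the 3 number 6 libraries and 3.66 to 9.04 CPM in the other 11. The part of these differences in the results on CEACAM and mucin genes was not tested. In bulk RNA, fewer cells of a type and less RNA per cell cannot be told apart.

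CEACAM6 ranged most widely among the CEACAM genes. In the libraries titled number 6 it had no count in weakly and strongly adherent library 6 and a single count, 0.0254 CPM, in unsorted library 6. Weakly adherent libraries 4, 5, 7-8, 9 and 10 had 0.892, 2.79, 0.175, 0.874 and 1.75 CPM. Strongly adherent libraries 4, 5 and 9 stood at 6.01, 22.7 and 2.99 CPM, and unsorted libraries 4, 5, 7-8 and 9 at 2.84, 0.522, 9.81 and 0.186 CPM. The 3 libraries titled number 6 thus lay below all of the other 12, which themselves spanned a 129.5-fold range. Pooled over libraries, the ratio of number 6 to the others was 0.00193, with a 95% interval from 4.89e-05 to 0.0108 that covers counting error only. Without number 6, the lowest strongly adherent value, 2.99 CPM in library 9, lay just above the highest weakly adherent one, 2.79 CPM in library 5. How many of all genes separated these classes in this way was not counted. The unsorted values overlapped both classes.

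CEACAM1, the transmembrane member with inhibitory motifs, had no count in any of the 3 libraries titled number 6, against 412 counts in the other 12. Those 12 ran from 0.156 CPM in strongly adherent library 9 to 2.73 CPM in strongly adherent library 5, with a median of 0.644 CPM. With the limit that a count of 0 allows, 3 counts over the 3 libraries or 0.0275 CPM, the number 6 level was at least 33.1-fold lower than the pooled level of the others. This limit covers counting error only, not the spread between libraries. Strongly adherent library 5 held 130 of the 412 counts. CEACAM1 differed from CEACAM6 in which libraries were high. Weakly adherent library 7-8 had the second-highest CEACAM1 level, 1.55 CPM, and the lowest CEACAM6 level of the 12. Unsorted library 7-8, of the same title number, had 0.623 CPM of CEACAM1.

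CEACAM5 was close to absent everywhere. It had 1 count each in weakly adherent library 9, strongly adherent library 5 and unsorted library 7-8 and none in the other 12 libraries, so no difference between groups could be detected at this depth. CEACAM19, a little-studied member of the family, was the steadiest of the CEACAM genes. It stood at 7.96, 10.8 and 4.86 CPM in weakly adherent, strongly adherent and unsorted library 6. The other 12 covered 7.29 to 16.4 CPM. The libraries titled number 6 overlapped the others here, with only unsorted library 6 below their range. The highest value belonged to weakly adherent library 10. Unlike the other tested members, CEACAM19 was not at its highest in strongly adherent library 5, where it had 8.33 CPM.

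MUC16, the CA125 mucin, reached the highest ratio between libraries of the 4 mucins. Weakly adherent, strongly adherent and unsorted library 6 held 17, 1 and 0 counts, or 0.522, 0.0267 and 0 CPM. Weakly adherent libraries 4, 5, 7-8, 9 and 10 had 4.46, 10.1, 10.8, 5.12 and 13.4 CPM. Strongly adherent libraries 4, 5 and 9 had 20.7, 77.7 and 11.7 CPM, and unsorted libraries 4, 5, 7-8 and 9 had 8.31, 3.61, 14.3 and 2.35 CPM. All 3 libraries titled number 6 lay below the other 12. Strongly adherent library 5 was 3.75 times the next highest library, strongly adherent library 4. The log2 difference between number 6 and the others, fitted in edgeR with adhesion class as a covariate, was -6.27 ± 1.25 (SE), and it was -10.37 without weakly adherent library 6, which held 17 of the 18 counts. The second value rests on 1 count and depends on the small count that the fit adds.

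MUC4, a membrane mucin that binds ERBB2, followed a similar order. It stood at 0.215, 0.267 and 0.0254 CPM in weakly adherent, strongly adherent and unsorted library 6. Among the other 12 it was highest at 29.8 CPM in strongly adherent library 5, followed by 8.50 CPM in strongly adherent library 4, and lowest at 1.61 CPM in unsorted library 9. Number 6 again lay below all the others, with a fitted log2 difference of -5.37 ± 0.81 (SE). MUC20, a smaller mucin known to interact with the receptor MET, had 1, 5 and 1 counts in weakly adherent, strongly adherent and unsorted library 6, or 0.0307, 0.134 and 0.0254 CPM. The other 12 spanned 0.371 to 6.96 CPM with a median of 1.38 CPM, from unsorted library 9 to strongly adherent library 5. The fitted log2 difference of MUC20 was -5.12 ± 0.85 (SE).

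MUC1 did not share this gap. Weakly adherent, strongly adherent and unsorted library 6 had 60.7, 66.3 and 12.3 CPM. The other weakly adherent libraries, 4, 5, 7-8, 9 and 10, had 76.1, 69.2, 67.5, 62.2 and 87.2 CPM. Strongly adherent libraries 4, 5 and 9 had 129.8, 155 and 55.6 CPM, and unsorted libraries 4, 5, 7-8 and 9 had 80.9, 75.0, 135.8 and 55.1 CPM. The weakly and strongly adherent libraries titled number 6 lay within the range of the other 12, and only unsorted library 6 lay below it. The fitted log2 difference was -1.03 ± 0.43 (SE) with all libraries and -0.47 without unsorted library 6. Weakly and strongly adherent library 6 thus held 60.7 and 66.3 CPM of MUC1 and no count of CEACAM1 or CEACAM6.

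**Figure D1:**
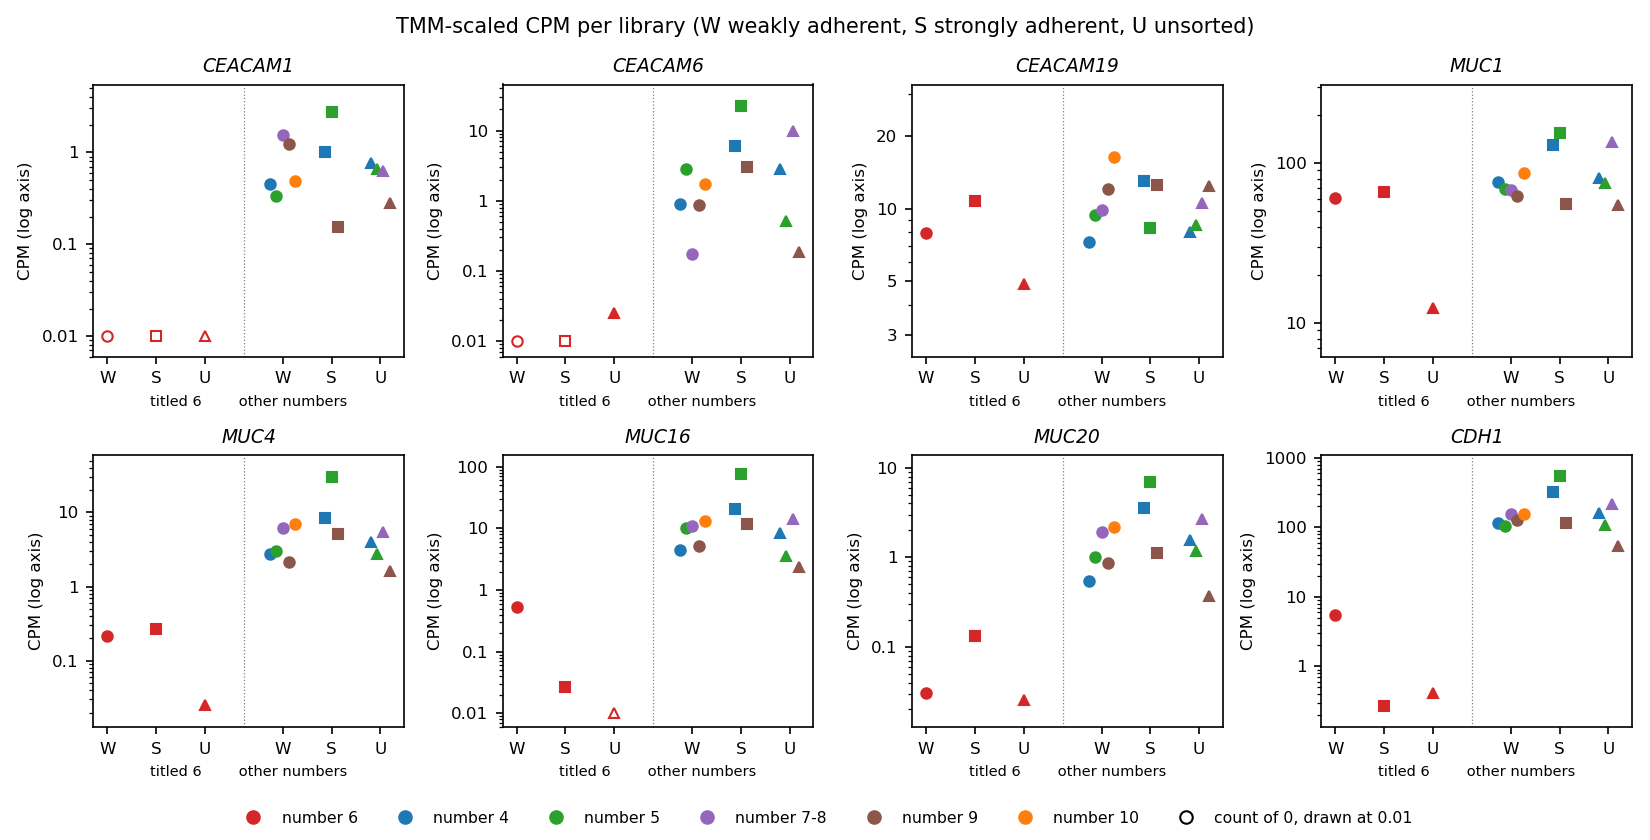
TMM-scaled CPM (log axis) of the 7 tested CEACAM and mucin genes and of CDH1, 1 point per library, with libraries titled number 6 on the left and the others on the right of each panel, by adhesion class, and open symbols for a count of 0. CEACAM1, CEACAM6, MUC4, MUC16, MUC20 and CDH1 leave a gap between number 6 and the rest, while CEACAM19 and MUC1 overlap, and strongly adherent library 5 is the highest point of every panel but CEACAM19.

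Of the 7 tested members, 5 (CEACAM1, CEACAM6, MUC4, MUC16 and MUC20) had all 3 libraries titled number 6 below the lowest of the other 12, and 0 had all 3 above. Among all 15190 genes tested, 10.4% lay below in this way and 5.63% above. The members were chosen by this contrast, and the 5 passed the filter on low counts through the other 12 libraries, so the count describes them and supports nothing.

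Strongly adherent library 5 held the highest level of 6 of the 7 tested members, a pattern noted after the values were seen. Over all genes tested that library was the highest for 18.1%. Its values for MUC16, MUC4 and CEACAM6 were 3.75, 3.50 and 2.31 times those of the next highest library, and 0.876% of all genes reached at least 2 times there. For MUC20, CEACAM1 and MUC1 the ratios were 1.95, 1.77 and 1.14. The next highest was strongly adherent library 4 for MUC4, MUC16 and MUC20, unsorted library 7-8 for CEACAM6 and MUC1, and weakly adherent library 7-8 for CEACAM1. The same library also had the highest CDH1, 549 CPM, and the lowest VIM, 1143 CPM, besides the muscle RNA given above. Whether these measures bear on its mucin levels was not tested.

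Setting weakly against strongly adherent tumours asks whether the class by which cells were sorted left a mark on these genes in the tumour. All 7 tested members had a negative log2 fold change, with a median of -1.43 against -0.02 over all genes. CEACAM6 had a mean of 1.08 CPM with an SD of 1.04 over 6 weakly adherent libraries, against 7.92 CPM with an SD of 10.1 over 4 strongly adherent libraries. Its log2 fold change was -2.87 ± 1.47 (SE). MUC16 had a mean of 7.39 CPM (SD 4.81) in the weakly adherent libraries, against 27.5 CPM (SD 34.5) in the strongly adherent ones, with -1.90 ± 1.25 (SE). The log2 fold change of MUC4 was -1.62 ± 1.07, of MUC20 -1.43 ± 1.01, of CEACAM1 -0.53 ± 1.11, of MUC1 -0.53 ± 0.45 and of CEACAM19 -0.09 ± 0.26 (SE). None of these passed: edgeR's quasi-likelihood test called 0 of the 7 members, beside 0% of the 15190 genes, and 366 genes had an unadjusted p under 0.05. With adhesion class alone, the smallest unadjusted p among the members was 0.0715, that of CEACAM6. In such a fit 0 genes were called by limma voom, limma-trend or DESeq2 either. With the title number also fitted as a block, edgeR gave MUC4 -1.93 ± 0.43 and MUC20 -1.98 ± 0.45 (SE). Their unadjusted p was 0.00067 and 0.00076, but adjusted p was 0.690 for both. DESeq2 with that block called 36 genes, MUC4 and MUC20 among them, so these calls depended on the tool and the block.

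The fold changes with adhesion class alone rested largely on strongly adherent library 5. Without it the log2 fold change of CEACAM6 was -1.47, of MUC16 -0.55, of MUC4 -0.38 and of MUC20 -0.56, and that of CEACAM1 turned to 0.79. Without the libraries titled number 6 the values stayed near those of all libraries and their spread narrowed. CEACAM6 had -3.02 ± 1.09, MUC16 -2.07 ± 0.67, MUC4 -1.77 ± 0.57 and MUC20 -1.58 ± 0.61 (SE, 5 weakly and 3 strongly adherent libraries). Their 95% intervals lay below 0, yet 0 of the 7 members passed in edgeR, beside 0% of 15255 genes, and adjusted p was 0.878 for each of these 4. Without strongly adherent library 5 as well, they were -1.78 for CEACAM6, -0.88 for MUC16, -0.68 for MUC4 and -0.84 for MUC20. Within a title number, weakly adherent was below strongly adherent for MUC4 and MUC20 in 4 of 4 numbers and for MUC16 in 3 of 4. In number 6 the weakly against strongly adherent counts were few, 7 against 10 for MUC4, 1 against 5 for MUC20 and 17 against 1 for MUC16. CEACAM6 was lower in 3 of 4 numbers and at 0 in both libraries titled number 6. The share of all genes with such agreement was not counted, so these counts are description.

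Strongly adherent against unsorted tumours asks the same of the strongly adherent fraction and the whole population. The strongly adherent libraries are shared with the comparison above, so both sets of values depend on the same libraries. All 7 members had a positive log2 fold change here, with a median of 1.34 against 0.02 over all genes. MUC16 had a mean of 27.5 CPM (SD 34.5) in 4 strongly adherent libraries, against 5.72 CPM (SD 5.69) in 5 unsorted libraries, and a log2 fold change of 2.27 ± 1.34 (SE). MUC4 had a mean of 10.9 CPM (SD 13) in the strongly adherent libraries, against 2.78 CPM (SD 2.11) in the unsorted ones, with 1.97 ± 1.14 (SE). CEACAM6 had 1.57 ± 1.5, MUC20 1.34 ± 1.06, CEACAM1 1.07 ± 1.17, MUC1 0.50 ± 0.47 and CEACAM19 0.33 ± 0.27 (SE). Again 0 of the 7 members passed in edgeR, beside 0% of all genes tested, with 572 genes at an unadjusted p under 0.05. Without strongly adherent library 5, MUC16 had 0.92, MUC4 0.73, MUC20 0.46, CEACAM6 0.17 and MUC1 0.22, and CEACAM1 had -0.25.

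Libraries with the same title number deviated together in this comparison, although some of different numbers correlated more. The number was also fitted as a block. MUC1, MUC4, MUC16 and MUC20 were higher in the strongly adherent than in the unsorted library of the same number in 4 of 4 numbers. CEACAM6 and CEACAM19 were so in 3 of 4 and CEACAM1 in 2 of 4. In number 6 this rested on 10 against 1 counts of MUC4, 1 against 0 of MUC16 and 5 against 1 of MUC20. In number 9 MUC1 was nearly equal, at 55.6 against 55.1 CPM. How many of all genes kept 1 direction in every number was not counted, so these counts are description. MUC4, MUC16 and MUC20 also moved together over libraries, so they do not count as separate results. With the replicate block in edgeR, MUC4 had a log2 fold change of 2.12 ± 0.42 (SE), MUC20 1.76 ± 0.44, MUC16 2.31 ± 0.81 and MUC1 0.78 ± 0.44. The adjusted p was 0.561 for MUC4 and MUC20, and edgeR called 0 genes. DESeq2 with the same replicate block called 23 genes, and MUC4 was the only member among them (log2 fold change 2.13, adjusted p = 0.00139). The call for MUC4 thus depended on the tool.

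Weakly adherent against unsorted tumours showed no common direction. Of the 7 members, 4 had a positive and 3 a negative log2 fold change, with a median of 0.24 against 0.00 over all genes. CEACAM6 had the largest, -1.30 ± 1.38 (SE), with a mean of 1.08 CPM (SD 1.04) in weakly adherent and 2.68 CPM (SD 4.15) in unsorted libraries. Without unsorted library 7-8, which held 9.81 CPM, it was 0.30. MUC16 had 0.37 ± 1.21, MUC4 0.35 ± 1.03, MUC20 -0.10 ± 0.97 and MUC1 -0.03 ± 0.43 (SE). CEACAM1 and CEACAM19 had 0.54 ± 1.08 and 0.24 ± 0.24 (SE). edgeR called 0 of the 7, beside 0% of all genes, with 81 genes at an unadjusted p under 0.05. The 95% interval of CEACAM19 ran from -0.27 to 0.75, while that of MUC16 ran from -2.23 to 2.98, so for MUC16 changes of several-fold either way were not detectable with these libraries.

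**Figure D2:**
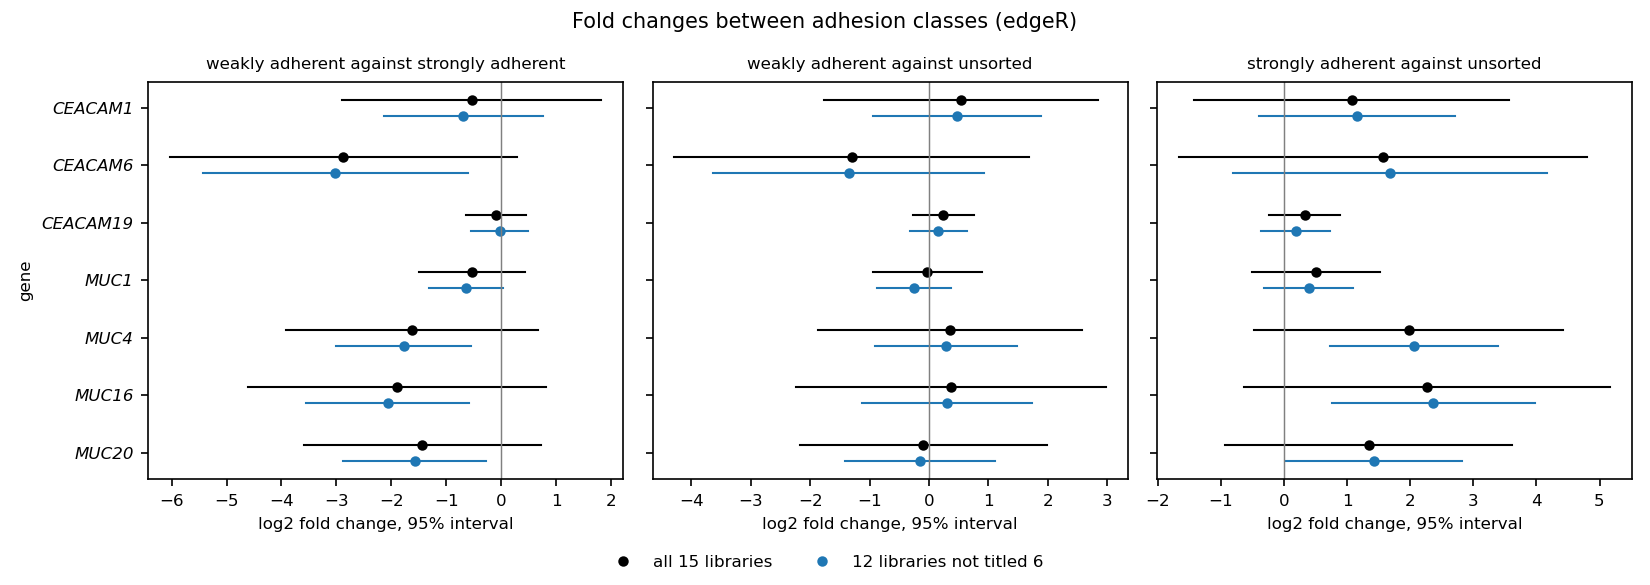
Log2 fold changes (points) with 95% intervals (lines) from edgeR for the 7 tested members in the 3 comparisons of adhesion classes, from all 15 libraries (black) and from the 12 not titled number 6 (blue). Members lie below 0 for weakly against strongly adherent and above 0 for strongly adherent against unsorted, and the intervals of MUC4, MUC16 and MUC20 leave 0 out in both only without number 6, where no member passed after adjustment.

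Among the 12 libraries not titled number 6, which the choice of the members did not contrast, the member mucins moved together more closely than the CEACAM genes. The correlations that follow are of log2 CPM across 12 libraries, which share title numbers and adhesion classes, and are given as description. MUC4 and MUC16 had r = 0.96, MUC4 and MUC20 0.93, and MUC16 and MUC20 0.92. Without strongly adherent library 5 these were 0.92, 0.91 and 0.87 over 11 libraries. MUC1 had r of 0.76 with both MUC4 and MUC16 and 0.85 with MUC20. CEACAM6 had 0.81 with MUC16 and 0.79 with MUC1 but 0.24 with CEACAM1, and -0.14 with CEACAM1 without strongly adherent library 5. CEACAM19 had values from -0.27 to 0.03 with the other members, and from -0.13 to 0.34 without strongly adherent library 5.

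CDH1 tracked the member mucins, with r of 0.95 for MUC20, 0.91 for MUC4 and MUC16 and 0.89 for MUC1 over the 12 libraries. VIM, the mesenchymal filament gene, ran the other way, with -0.82 for MUC4 and MUC16. Of mucins that are not members, MUC5B had r of 0.74 with CDH1, MUC21 0.63 and MUC15 -0.21. Without strongly adherent library 5, CDH1 kept 0.91 with MUC20 and 0.83 with MUC16, and VIM had -0.50 with MUC4 and -0.62 with MUC16. Over the same 11 libraries CDH1 had 0.84 with MUC21, 0.81 with MUC5B and -0.14 with MUC15. MUC21 had 0.93 with MUC4 and 0.92 with MUC20 there, so close correlation was not particular to the member mucins. The weakly adherent and unsorted libraries titled 7-8 showed how CEACAM6 could part from the mucins. MUC16 stood at 10.8 CPM in weakly adherent and 14.3 CPM in unsorted library 7-8, and MUC4 at 6.25 CPM in weakly adherent and 5.48 CPM in unsorted library 7-8. CEACAM6 stood at 0.175 CPM, 6 counts, in weakly adherent and 9.81 CPM, 362 counts, in unsorted library 7-8.

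**Figure D3:**
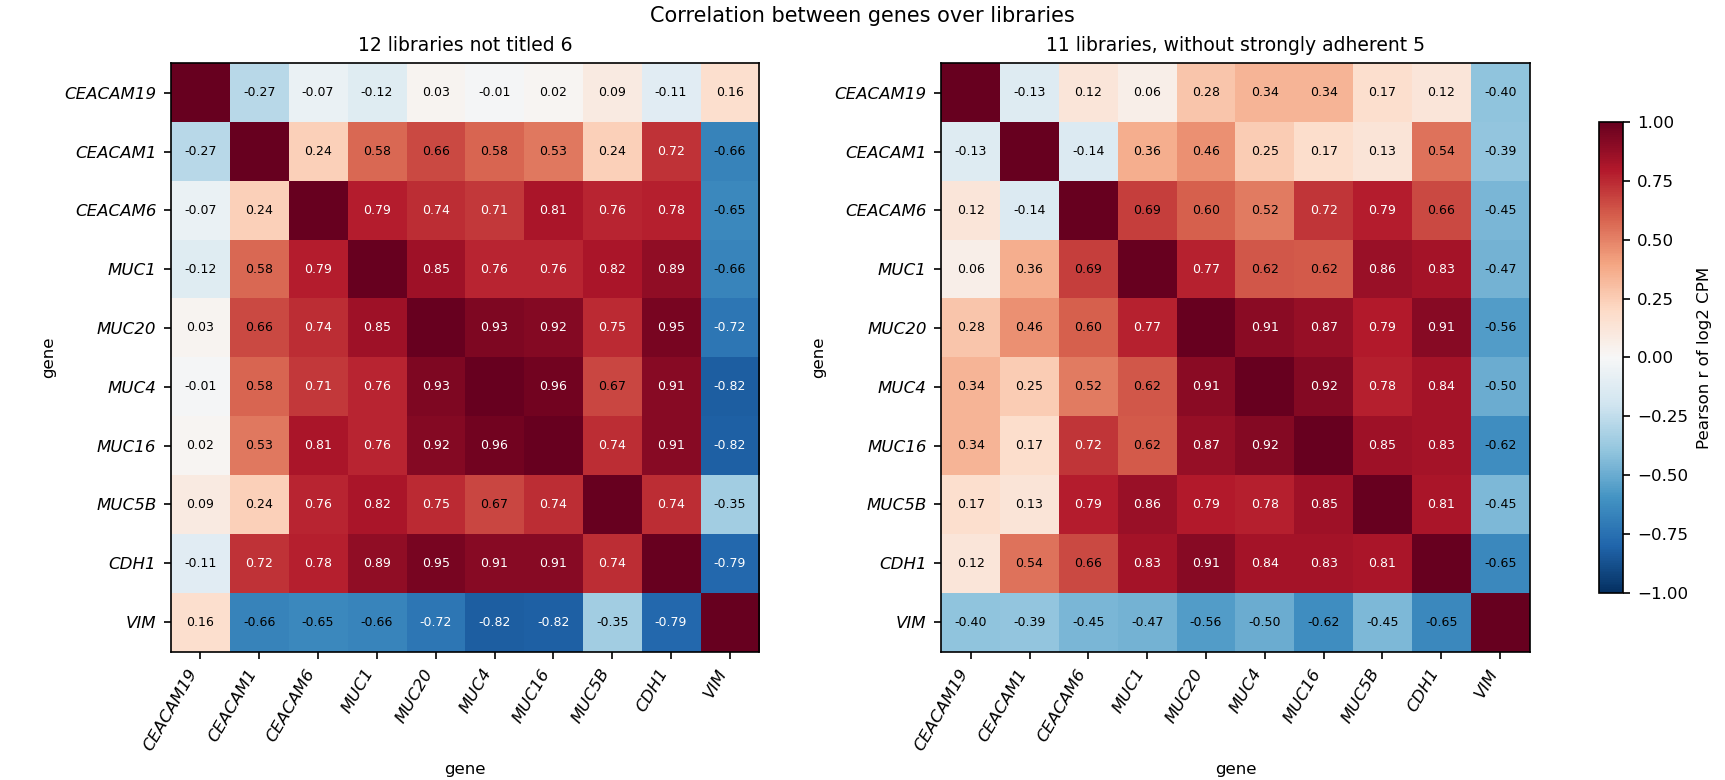
Pearson correlation of log2 CPM between the tested members, MUC5B, CDH1 and VIM over the 12 libraries not titled number 6 (left) and over 11 without strongly adherent library 5 (right). MUC4, MUC16, MUC20 and CDH1 form the darkest block (0.91 to 0.96 on the left), CEACAM19 lies between -0.27 and 0.03 with the other members on the left, and VIM is negative with every member but CEACAM19 there.

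**Figure D4:**
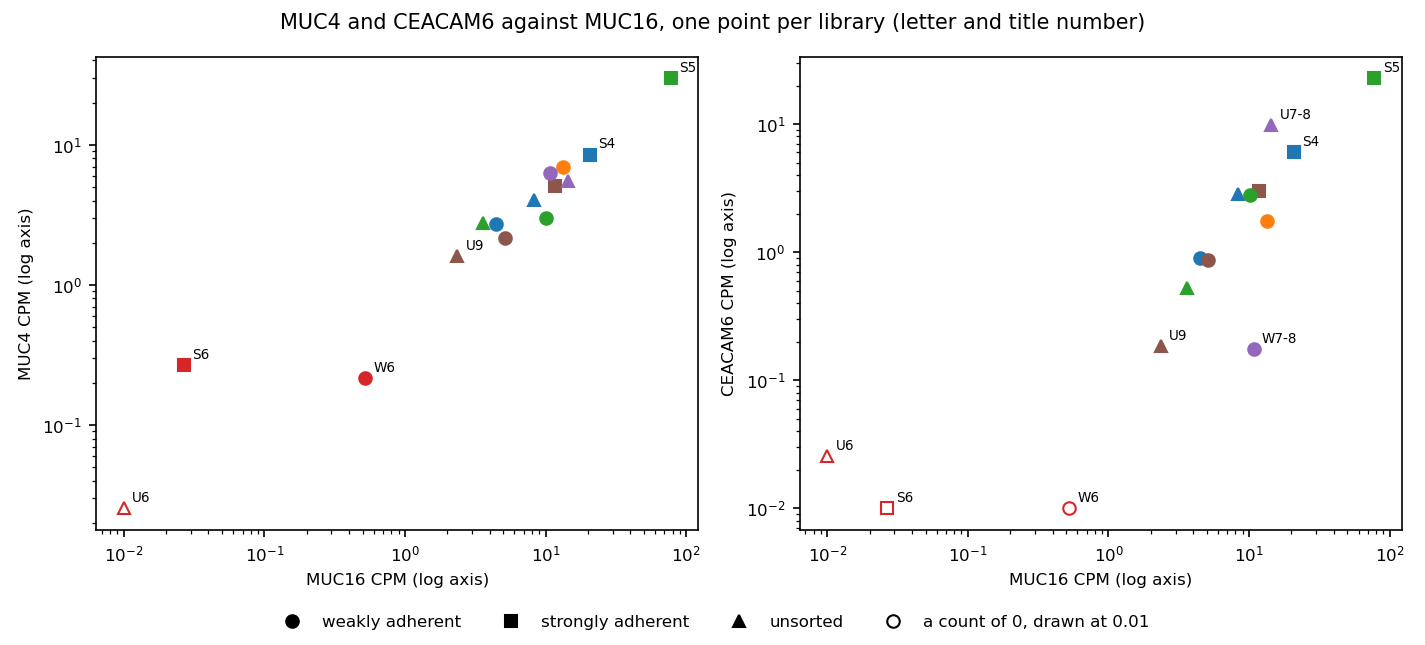
MUC4 (left) and CEACAM6 (right) against MUC16 in CPM on log axes, 1 point per library, with colours for title numbers as in the plot of the members by library, symbols for adhesion class, and open symbols where a gene had a count of 0. The libraries titled number 6 lie in the lower left, MUC4 follows MUC16 along a narrow band in the other 12, and weakly adherent library 7-8 falls far below the band for CEACAM6.

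Among all tested genes with a mean of at least 1 CPM over these 12 libraries, the ones most like each member were as follows. MUC4 and MUC16 were each the closest match of the other. MUC4 was next closest to AP1M2 (r = 0.95), an epithelial clathrin adaptor subunit, and CASZ1 (0.93), and MUC16 to DNAH2 (0.94) and MAPRE3 (0.93). MUC20 was closest to C1orf116, GPR110 and the polarity gene CRB3 (0.98, 0.98 and 0.97). For MUC1 they were STOM, the tetraspanin gene TSPAN1 and the desmosome-associated gene PERP (0.98, 0.97 and 0.96). CEACAM6 was closest to DTX4 (0.93), and FAT2 (0.91) was also among its closest matches. CEACAM1 was closest to POT1, which protects telomeres, with 0.97, and to the metabolic genes PSAT1 and DBT (0.93 and 0.92). CEACAM19 was closest to CDK11A, which has a near-identical copy, KCNAB3 and SLC9A3 (0.93, 0.92 and 0.91). The mean standardised profile of the 7 members was closest to FAM83B, GOLGA7B, VWA2, the epithelial splicing factor ESRP2 and S100A14 (0.97 to 0.98). Each is the highest of many values over 12 libraries, and these were picked for being the highest.

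Other genes of the family were given from lists that were chosen with earlier results of these data known. Of 18 further CEACAM and PSG genes, 6 had no count in any library (CEACAM3, CEACAM4, CEACAM7, CEACAM8, CEACAM21 and PSG8) and 3 passed the filter (PSG4, PSG5 and PSG9, which belong to the pregnancy-specific branch). These 3 overlapped between number 6 and the other libraries, PSG9 at 0.534 to 1.04 CPM against 0 to 0.773 CPM. Of 8 further transmembrane mucins, MUC12, MUC15, MUC21 and MUC22 passed the filter. MUC21 had no count in number 6 and 0 to 3.68 CPM in the others, whereas MUC15 lay at 0.127 to 1.84 CPM against 0.438 to 2.71 CPM. Neither gene separated the sets completely, since unsorted library 9 had no MUC21 count either.

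Among 7 secreted mucins in the table, MUC5B, a gel-forming mucin of the airways, left the clearest gap. It stood at 1.20, 0 and 0.204 CPM in weakly adherent, strongly adherent and unsorted library 6. The other 12 ran from 9.06 CPM in unsorted library 9 to 95.6 CPM in unsorted library 7-8, so its highest library was not that of the membrane mucins. MUC2, the intestinal gel-forming mucin, had no count in number 6 and up to 1.87 CPM in strongly adherent library 5. MUC5B had r = 0.82 with MUC1, 0.76 with CEACAM6 and 0.74 with MUC16 over the 12 libraries. No listed mucin or CEACAM relative passed in any of the 3 comparisons of adhesion classes, beside 0% of all genes.

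The enzymes that build mucin-type O-glycans were given as 2 lists, whose difference from each other was not tested. Lists were chosen with earlier results known, so their counts without overlap are, as for the members, description and support nothing. Genes nearly absent in number 6, such as B3GNT6, passed the filter on low counts through the other 12 libraries. Of 14 tested GalNAc transferases, which attach the first sugar, 1 lay below and 0 above without overlap in number 6, beside 10.4% and 5.63% of all genes. Their median log2 difference was -0.36, against -0.01 over all genes, and their summed level was 798 to 1021 CPM in number 6 and 920 to 1500.2 CPM in the others. The gene below was GALNT6, at 40.4 to 66.4 CPM in number 6 and 114 to 281 CPM in the others. C1GALT1, which makes the core 1 structure, overlapped at 58.2 to 68.7 CPM against 52.9 to 77.8 CPM, and its chaperone gene C1GALT1C1 lay higher in number 6, at 48.4 to 54.2 CPM against 31.4 to 45.8 CPM. Of 23 tested genes that extend, fucosylate or sialylate the glycans, 9 lay below and 1 above without overlap, beside the same shares of all genes. Their median log2 difference was -0.42, and their summed level overlapped, at 554 to 595 CPM in number 6 and 522 to 729 CPM in the others. B3GNT6, the core 3 synthase, had 0 to 0.491 CPM in number 6 against 2.41 to 35.8 CPM. FUT3, the Lewis fucosyltransferase, had 0 to 0.430 CPM against 1.95 to 14.8 CPM. ST6GALNAC1, which makes the sialyl-Tn antigen, had 0 to 0.276 CPM against 0.557 to 11.7 CPM, and FUT2 had 0.331 to 0.642 CPM against 2.20 to 7.80 CPM.

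Of 14 tested ligands and signalling partners, 6 lay below and 0 above without overlap, beside 10.4% and 5.63% of all genes. Counts for this list and those that follow are likewise description and support nothing. ERBB3, a receptor of the ERBB family, had 2.01 to 8.72 CPM in number 6 and 19.9 to 99.3 CPM in the others, and ERBB2 had 76.6 to 86.6 CPM against 89.0 to 145 CPM. PTPN6, the phosphatase that binds the inhibitory motifs of CEACAM1, stood at 4.35 to 10.8 CPM against 16.9 to 32.2 CPM. LGALS3, a galectin that binds MUC1 glycans, and MSLN, the mesothelin partner of MUC16, overlapped, at 241 to 389 against 226 to 342 CPM and at 46.6 to 60.5 against 34.2 to 52.2 CPM. Of the 7 genes listed as sheddases, among them the intracellular phospholipase gene PLCG1, ADAM9 alone lay below without overlap, a share near that of all genes. Among 14 tested epithelial transcription and splicing factors, 8 lay below and 1 above, beside 10.4% and 5.63% of all genes. GRHL2 had 0.0802 to 0.430 CPM in number 6 against 10.7 to 86.6 CPM, and ESRP1 0.102 to 1.44 CPM against 14.7 to 143 CPM. No gene of these lists passed between adhesion classes in edgeR, beside 0% of all genes.

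**Figure D5:**
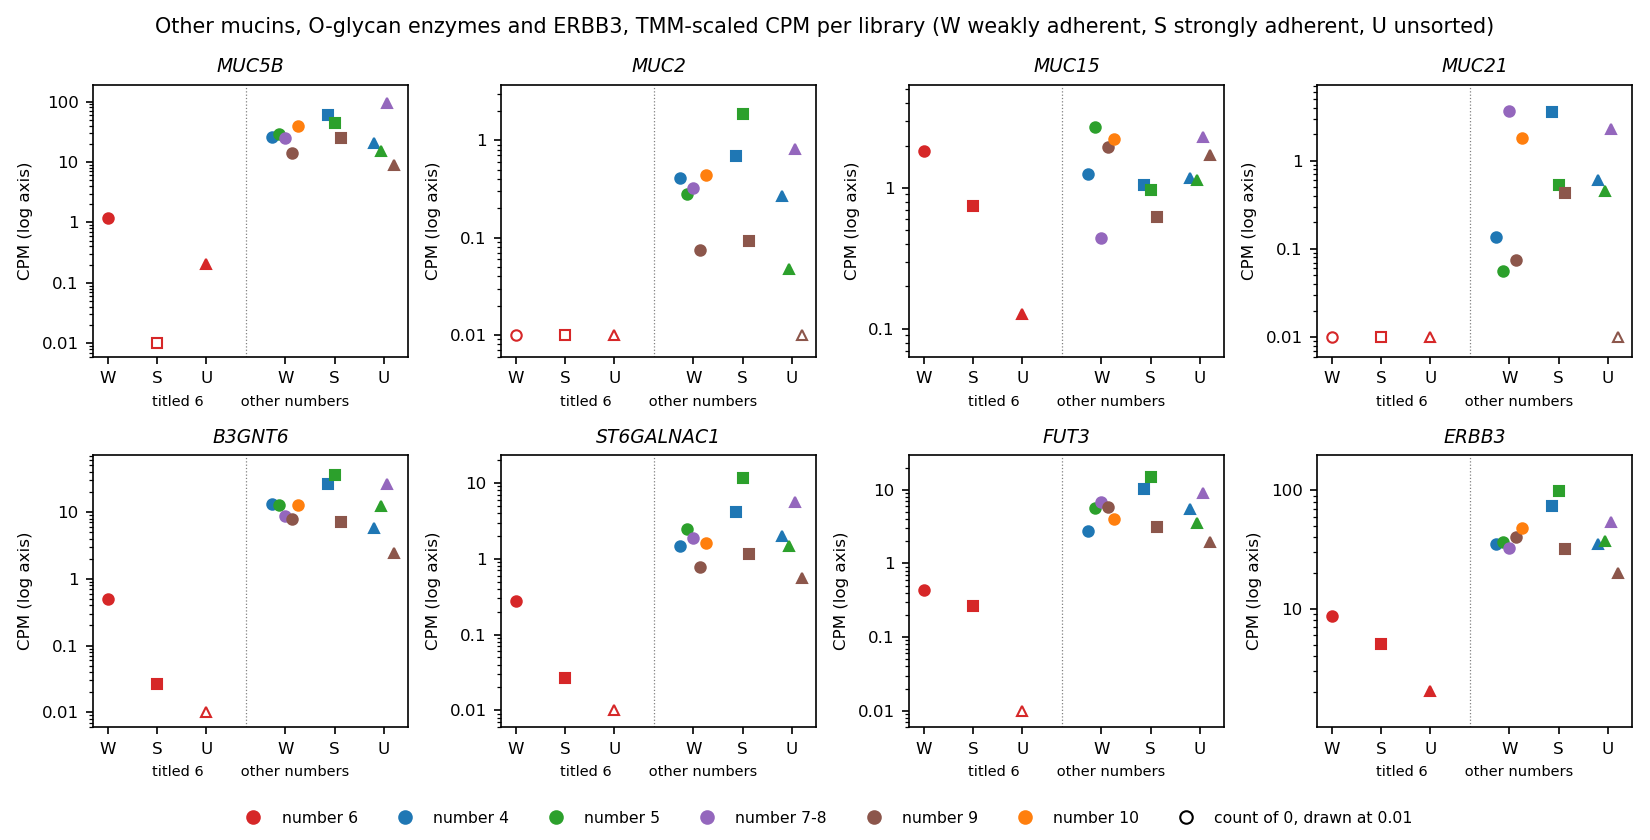
TMM-scaled CPM (log axis) of 4 other mucins, 3 O-glycan enzymes and ERBB3, 1 point per library, laid out as in the plot of the members by library, with open symbols for a count of 0. MUC5B, B3GNT6, ST6GALNAC1, FUT3 and ERBB3 leave a gap between number 6 and the rest, and MUC15 overlaps.

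Markers of other cell types were also summed. Reads were counted on human genes and the tumours grew in mice, so these sums do not measure the amount of host cells. The 10 granulocyte markers came to 2.24 to 4.31 CPM in number 6 and 1.34 to 5.00 CPM in the other 12, nearly all of it FPR1, and MPO, ELANE, S100A12, CEACAM8 and CEACAM3 had no count in any library. The 7 markers of secretory breast epithelium came to at most 0.0999 CPM in any library, with CSN2, LALBA, SCGB1D2 and PIP at 0. The 8 lung epithelium markers came to 3.89 to 7.78 CPM in number 6 and 23.5 to 305 CPM in the others, highest in unsorted library 7-8 and lowest in unsorted library 9. The 8 lymphocyte markers summed to 0.331 to 0.83 CPM in number 6 and 1.65 to 5.78 CPM in the others. The 7 fibroblast markers came to 221 to 411 CPM in number 6 and 441 to 1357 CPM in the others, and the 7 endothelial markers to 22.6 to 26.1 CPM in number 6 and 8.03 to 20.1 CPM in the others, so both sums separated number 6 from the rest. The 8 monocyte and macrophage markers overlapped, at 123 to 205 CPM in number 6 and 72.8 to 128 CPM in the others. The 9 epithelial markers summed to 2717 to 3314 CPM in number 6 and 4707 to 10683 CPM in the others, highest in strongly adherent library 5. Their part in the levels of the CEACAM and mucin genes was not tested.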

How the data were processed

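The authors deposited raw counts per human gene symbol for 15 libraries, from reads of 50 bp and a TruSeq stranded kit (labels). STAR, HTSeq, DESeq2, cutadapt and FastQC, with build hg19, are named in the submitters' processing notes. Versions, strand use and the handling of reads that match several genes are not given in the sources used here, so counts of CEACAM1, CEACAM5 and CEACAM6, which share similar stretches, and of the repeats of MUC1, MUC4, MUC16 and MUC20 are uncertain. The authors' deposited log2 values equal log2 of the count over a size factor plus 1 and served only the limma-trend alternative. No sequence or human coordinate was used.

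The software was edgeR 4.0.16 under R 4.3.3 (TMM, filterByExpr, robust quasi-likelihood fit of all 15 libraries with adhesion class as the single term), which left 15190 genes. All tests are two-sided, and p-values were adjusted across all tested genes by Benjamini-Hochberg, with a threshold of 0.05. SE is the absolute log2 fold change over the square root of F, and intervals are approximate. Contrasts were tested on simulated data. Alternatives used DESeq2 1.42.0 and limma 3.58.1. The fit without number 6 and strongly adherent library 5 was added after seeing the data. Members and lists were chosen with earlier results of these data known. All 8 members are given. From other lists at most 4 genes of largest difference at a mean of at least 1 CPM are named, besides CDH1, VIM and genes named for their role after their values were seen. Same-numbered libraries were checked for shared deviations from the class means. In the comparison of strongly adherent with unsorted tumours all 4 pairs correlated (0.28 to 0.75), which was the reason for the block there. Some libraries of different numbers correlated more. Strongly adherent library 5 had 0.43 with unsorted library 4, against 0.28 with unsorted library 5. The check thus does not show that the numbers pair the libraries. For weakly against strongly adherent 3 of 4 pairs and for weakly adherent against unsorted 4 of 5 pairs exceeded 0.1. This cannot settle whether the numbers pair those libraries. One of the closest matches of CEACAM6 is not reported here.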

Additional observations from a re-analysis of the deposited data

Results flagged for a closer look

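CEACAM6 in unsorted library 7-8, at 9.81 CPM, stood far from the other 4 unsorted libraries in CPM without log transformation. Its gap to the next highest library was 0.713 of the whole range of the 5, just above Dixon's critical value for 5. Of 21 tests of a gene in a class it was the only flag, and chance flags about 1 in 20 groups where values are normally distributed. In log2 CPM, unsorted libraries 7-8, 4, 5, 9 and 6 stood at 3.30, 1.53, -0.80, -2.07 and -3.67. The top gap was no wider there than that between libraries 4 and 5, and Dixon's test was not run on that scale.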

How the results depend on the processing

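No member or gene passed between adhesion classes under other scalings, filters, limma voom, limma-trend, DESeq2 without a block, edgeR with the replicate block, the 2 classes alone, or with any 1 library, number 6, or number 6 and strongly adherent library 5 left out. DESeq2 with the replicate block called 36 genes and 2 members for weakly against strongly adherent (MUC4 at -1.87, adjusted p = 0.0125, and MUC20 at -2.0, adjusted p = 0.0321), 7 genes and 0 members for weakly adherent against unsorted, and 23 genes and 1 member for strongly adherent against unsorted. In all, 9 of 14 libraries with a partner correlated best with their own number. Of 567 recomputed fold changes, 21 changed sign. For weakly against strongly adherent, CEACAM1 turned to 0.27 (voom), 0.25 (limma-trend) and 0.47 (without number 6 and strongly adherent library 5), and ran from -0.95 to 0.79 with 1 library left out. For weakly adherent against unsorted, MUC1 turned to 0.32 (voom), 0.31 (limma-trend) and 0.18 (edgeR and DESeq2 with the block), and MUC20 to 0.26 (voom) and 0.15 (limma-trend). With 1 library left out MUC1 ran from -0.30 to 0.34, MUC20 from -0.42 to 0.47 and CEACAM6 from -1.85 to 0.30. For strongly adherent against unsorted, CEACAM1 was -0.0016 without number 6 and strongly adherent library 5, and ran from -0.25 to 1.48 with 1 library left out. The log2 difference of number 6 ran from -1.62 (without weakly adherent library 6) to -0.47 (without unsorted library 6) for MUC1 and from -10.37 to -5.06 for MUC16. The causes were not tested. CEACAM5 and, in number 6, CEACAM1 are limited by depth.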
